A study of Mus musculus with 8 samples.

Results

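Tenascins, periostin, thrombospondins and fibronectin are glycoproteins of the extracellular matrix. The matricellular proteins among them are secreted into the matrix and act mainly on how cells attach, migrate and respond to growth factors, rather than as load-bearing fibers. In arteries, several of them are known to be made by smooth muscle cells and adventitial fibroblasts when the wall is injured, stretched or inflamed, and they signal through integrins, syndecans, CD36 and CD47. The 9 genes described here are Tnn (tenascin-W), Tnc (tenascin-C), Tnxb (tenascin-X), Postn (periostin), Thbs1, Thbs2, Thbs3 and Thbs4 (thrombospondins) and Fn1 (fibronectin), taken by symbol from the 35896 genes of the table. They were selected on the levels of Tnn, because its counts were near 0 without AngII and high with it. The levels of Tnn, and the AngII against CTRL values of all members, are therefore a description, and nothing is read from a test of them.

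RNA from a part of each aorta, with no cell type sorted, was sequenced as 8 libraries, 2 in each of 4 groups, and each library held aortic tissue of 2 male C57BL6 mice, so that 16 mice entered and n = 2 pooled libraries in every group. AngII mice received angiotensin II from osmotic minipumps implanted at 11 weeks of age, at 2.8 mg/kg/d for 2 weeks, and were sacrificed at the end of the infusion. AngII+2W and AngII+3W mice received the same infusion and were sacrificed 2 and 3 weeks after it, and CTRL mice were untreated, age-matched littermates whose time of sacrifice is not in their labels. Among the groups given AngII, time after infusion and age at sacrifice rise together and cannot be told apart. The 8 libraries held 18130441 to 21498200 counts each, and levels are CPM (counts scaled to a common library size after TMM normalization). As the floor of detection, 3 counts corresponded to 0.140 to 0.162 CPM. Smooth muscle markers were abundant in CTRL (Acta2 had 62753 and 47734 counts). Mitochondrial genes held 8.15% to 18.3% of counts, with the highest share in AngII+3W replicate 1 and at most 13.5% elsewhere. AngII+3W replicate 1 stood apart from the other libraries: a list of 11 skeletal muscle genes held 0.262% of its counts, against at most 0.00732% elsewhere. For the genes called in comparisons with AngII+3W, and for the member estimates there that are furthest from 0, values without this library are given too.

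Tenascin-W has a restricted expression in the adult and is known from developing bone, stem cell niches and tumor stroma. The gene Tnn spans bases 160085029 to 160153580 of chromosome 1 in GRCm38 and is read from the reverse strand. Its counts were 2 and 0 in the CTRL libraries, 223 and 359 under AngII, 1 and 0 at AngII+2W, and 2 and 1 at AngII+3W. All 6 libraries from mice without ongoing infusion were thus below the floor, while both AngII libraries were far above it, at 12.0 and 17.0 CPM (14.5 ± 3.51, SD, n = 2). Against the floor of 3 counts per library, the AngII mean was at least 101-fold higher than in CTRL, at least 96.5-fold higher than in AngII+2W and at least 90.2-fold higher than in AngII+3W. Even in AngII, Tnn was the least abundant member per length, at 2.50 CPM per kilobase of exon.

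Upstream sequence is shown for the 3 members on which the values turn most: Tnn, Thbs4, whose fold change between CTRL and AngII was the largest of the other members, and Postn, one of the genes that differed between AngII+3W and AngII. The sequences are the 250 bases before the RefSeq start of each gene on GRCm38.p6, 5′ to 3′ on the gene's strand. Capitals mark matches, on either strand and allowing overlap, to the AP-1 letters TGANTCA, to the letters of the TEAD motif, GGAATG, to the letters TATAAA of a core promoter, to the letters GGGCGG bound by Sp1, or to the CArG box of smooth muscle genes. The Tnn window is chr1:160153576-160153825 on the reverse strand, the Thbs4 window is chr13:92794819-92795068 on the reverse strand, and the Postn window is chr3:54360857-54361106 on the forward strand.
Tnn: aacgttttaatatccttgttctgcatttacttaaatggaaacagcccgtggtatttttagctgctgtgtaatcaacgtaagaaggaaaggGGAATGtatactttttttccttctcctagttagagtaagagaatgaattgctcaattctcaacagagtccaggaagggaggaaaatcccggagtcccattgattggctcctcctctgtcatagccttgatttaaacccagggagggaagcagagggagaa
Thbs4: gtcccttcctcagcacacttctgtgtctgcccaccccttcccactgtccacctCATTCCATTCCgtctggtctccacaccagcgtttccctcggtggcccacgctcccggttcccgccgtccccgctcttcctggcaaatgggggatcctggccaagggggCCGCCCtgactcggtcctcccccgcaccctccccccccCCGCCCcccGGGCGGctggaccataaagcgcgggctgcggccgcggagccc
Postn: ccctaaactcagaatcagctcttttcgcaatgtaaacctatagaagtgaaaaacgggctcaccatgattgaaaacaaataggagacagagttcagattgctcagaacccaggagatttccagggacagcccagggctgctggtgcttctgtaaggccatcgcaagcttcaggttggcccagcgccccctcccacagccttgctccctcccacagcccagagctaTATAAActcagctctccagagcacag

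The Tnn window held a single match, to GGAATG, 160 to 155 bases before the start. The Thbs4 window held 2 matches to GGAATG on the opposite strand, between 197 and 187 bases before the start, and 3 to GGGCGG within the last 89 bases. Postn had TATAAA 26 to 21 bases before its start. RefSeq windows were at hand for 7 members, that is all except Thbs1 and Fn1. GGAATG was found in 2 of the 7 (Tnn and Thbs4) and in 12.6% of the windows of all genes, TATAAA in 3 (Postn, Thbs2 and Tnc) and 12.4%, GGGCGG in 3 (Thbs3, Thbs4 and Tnc) and 32.7%, TGANTCA in 1 (Tnxb) and 6.75%, and the CArG box in 0 and 1.47%. These matches describe letters only. The GC content of the 3 windows differed, with 42.0% in Tnn, 70.8% in Thbs4 and 52.0% in Postn, against a median of 52.4% over 32851 windows.

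**Figure D1:**
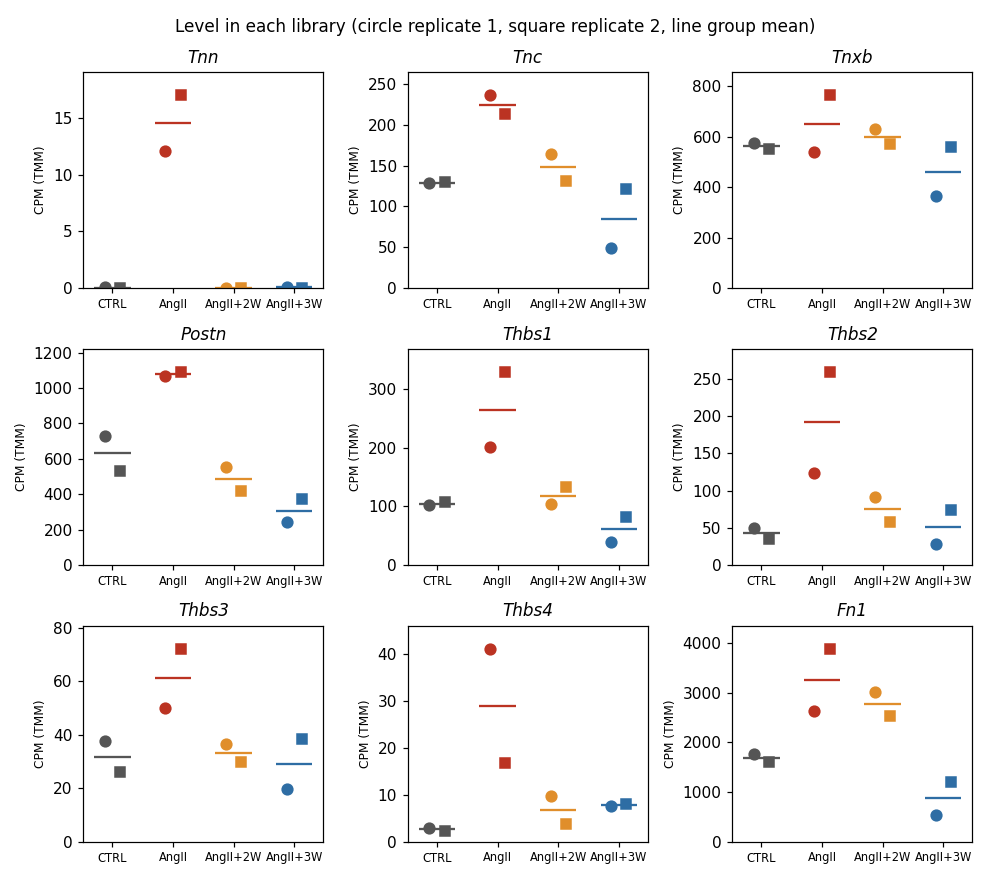
Level of each of the 9 genes in each library, as CPM on a linear axis that starts at 0 in every panel. Circles are replicate 1, squares replicate 2, and lines the mean of a group. Both AngII libraries lie above the other 6 libraries for Tnn and for 6 more members, whereas for Tnxb and Fn1 they do not.

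Of the other tenascins, Tnc, the tenascin of wound and injured vessel walls, measured 129 and 129.9 CPM in CTRL replicates 1 and 2, 236 and 213 CPM in those of AngII, 165 and 131 CPM in those of AngII+2W, and 49.1 and 121 CPM in those of AngII+3W. Both AngII libraries were above all others, and both AngII+3W libraries were below CTRL, although the latter differed from each other 2.47-fold. The log2 fold change in AngII against CTRL was 0.80 (SE 0.358). Tnxb, a tenascin of loose connective tissue that is tied to collagen fibers, was abundant in every group, from 364 CPM in AngII+3W replicate 1 to 766 CPM in AngII replicate 2. Its AngII libraries (539 and 766 CPM) overlapped those of CTRL (577 and 552 CPM), with a log2 fold change of 0.21 (SE 0.245). The 3 tenascins thus spanned the range from near absence to high expression, and their AngII values from overlap with CTRL to no overlap at all. Tnxb shares 97.6% identity over 1090 bases with Tnxa, whose 6 to 26 counts per library were small beside the 6783 or more of Tnxb.

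Periostin, a collagen-binding protein of activated fibroblasts, measured 731 and 534 CPM in CTRL replicates 1 and 2, 1065 and 1092 CPM in those of AngII, 555 and 420.0 CPM in those of AngII+2W, and 243 and 373 CPM in those of AngII+3W. Its AngII libraries stood close together and above the rest. Both AngII+3W libraries lay below every library of the other 3 groups. The log2 fold change was 0.77 (SE 0.258) in AngII against CTRL.

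Among the thrombospondins, Thbs1 and Thbs2 form trimers known for binding CD36 and CD47 and for restraining vessel growth, and Thbs1 also activates TGF-β. Thbs1 measured 102 and 107 CPM in CTRL replicates 1 and 2, 200.4 and 329 CPM in those of AngII, 103 and 133 CPM in those of AngII+2W, and 39.9 and 81.3 CPM in those of AngII+3W, and its log2 fold change in AngII against CTRL was 1.34 (SE 0.352). Thbs2 measured 50.1 and 34.8 CPM in CTRL replicates 1 and 2, 124 and 259.6 CPM in those of AngII, 91.3 and 58.3 CPM in those of AngII+2W, and 27.9 and 74.5 CPM in those of AngII+3W, with a log2 fold change of 2.18 (SE 0.524). For both genes, AngII libraries were above all others, AngII replicate 2 was the highest of the 8 and AngII+3W replicate 1 the lowest. For Thbs1, both AngII+3W libraries were below CTRL, whereas for Thbs2 they enclosed the CTRL values.

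Thbs3 and Thbs4 form pentamers and belong with the cartilage protein Comp. Thbs4, a thrombospondin of tendon and muscle that is known to be induced in the loaded heart, measured 3.02 and 2.40 CPM in CTRL replicates 1 and 2, 41.1 and 16.9 CPM in those of AngII, 9.75 and 3.70 CPM in those of AngII+2W, and 7.67 and 8.11 CPM in those of AngII+3W. Its log2 fold change in AngII against CTRL was 3.42 (SE 0.552), and it was the member whose AngII libraries differed most from each other, 2.44-fold. Unlike the other members, Thbs4 had all 4 libraries taken after the infusion above both CTRL libraries. Thbs3 ranged from 19.9 CPM in AngII+3W replicate 1 to 72.2 CPM in AngII replicate 2, with CTRL at 37.5 and 26.0 CPM and AngII at 50.1 and 72.2 CPM (log2 fold change 0.95, SE 0.329). Thbs3 shares 318 exon bases with Mtx1 on the opposite strand, and since the strand setting of the counting is not given in the sources used here, reads of Mtx1 (268 to 500 counts) could enter its values.

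Fibronectin, the ligand of α5β1 integrin on which other matrix proteins assemble, was the most abundant member in each group. Fn1 measured 1775 and 1609 CPM in CTRL replicates 1 and 2, 2636 and 3884 CPM in those of AngII, 3017 and 2532 CPM in those of AngII+2W, and 542 and 1201 CPM in those of AngII+3W. Its AngII+2W libraries overlapped AngII and stood above CTRL, whereas both AngII+3W libraries were below the other 6. The log2 fold change in AngII against CTRL was 0.95 (SE 0.372).

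Of the 8 members other than Tnn, 1 had an FDR below 0.05 in AngII against CTRL in edgeR's quasi-likelihood fit, as did 5.10% of all 17182 genes tested, and nothing is read from this count because this comparison served to select the members. The median log2 fold change of the 8 was 0.95, against -0.01 over all genes tested. Both AngII libraries were above all 6 others for 6 of the 8 members and for 11.9% of all genes.

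Ordered by CPM per kilobase of exon, a measure that allows levels to be set side by side between genes, CTRL had Fn1 (145), Postn (72.7), Tnxb (46.2), Thbs1 (17.2), Tnc (16.6), Thbs3 (6.59), Thbs2 (6.06), Thbs4 (0.824) and Tnn (0.00837, below the floor). Only Thbs3 and Thbs2 overlapped between neighbours in this order. In AngII, Thbs2 (27.4) ranked above Thbs3 (12.7) with no overlap, while Tnxb overlapped Thbs1, Tnc overlapped Thbs2 and Thbs3 overlapped Thbs4. In AngII+3W, Tnxb (37.9) ranked above Postn (35.4), but the ranges of the 2 genes overlapped. Summed over the 9 members, the level was 3404 and 2995 CPM for CTRL, 4905 and 6648 CPM for AngII, 4607 and 3881 CPM for AngII+2W, and 1294 and 2458 CPM for AngII+3W.

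To ask whether the members returned to CTRL levels after the infusion, AngII+2W and AngII+3W were each compared with CTRL. These comparisons share the CTRL libraries with the one above, so their values are set side by side and are not independent. In AngII+2W, 0 of the 8 members tested passed an FDR of 0.05, as did 0 (0%) of all genes. Thbs4 alone had an unadjusted p below 0.05, as did 10.7% of all genes, with a log2 fold change of 1.32 (SE 0.541, FDR = 0.446). Fn1 had a log2 fold change of 0.71 (SE 0.370, FDR = 0.558), Thbs2 of 0.82 (SE 0.508, FDR = 0.629) and Postn of -0.37 (SE 0.257, FDR = 0.670). The remaining 4 members had log2 fold changes between 0.06 and 0.19, with SE of 0.245 to 0.356.

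In AngII+3W, again 0 of 8 members passed an FDR of 0.05 in edgeR's quasi-likelihood test, where 0.285% of all genes did, while DESeq2 called 2 members and 3.42% of all genes, and 3 members and 12.5% of all genes had an unadjusted p below 0.05. These were Postn, with a log2 fold change of -1.04 (SE 0.260, FDR = 0.152), Fn1, with -0.96 (SE 0.372, FDR = 0.344), and Thbs4, with 1.54 (SE 0.542, FDR = 0.300). Thbs1 had a log2 fold change of -0.79 (SE 0.350, FDR = 0.416) and Tnc of -0.60 (SE 0.358, FDR = 0.536). Without AngII+3W replicate 1, the log2 fold changes were -0.77 for Postn, -0.50 for Fn1, -0.37 for Thbs1, -0.095 for Tnc and 1.58 for Thbs4. Both AngII+3W libraries were below both CTRL libraries for 4 of the 8 members (Tnc, Postn, Thbs1 and Fn1), as they were for 18.3% of all genes. The call count was 3 (Fn1, Postn and Tnc) when AngII+3W replicate 2 was left out and 0 when replicate 1, the library with skeletal muscle RNA, was left out.

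**Figure D2:**
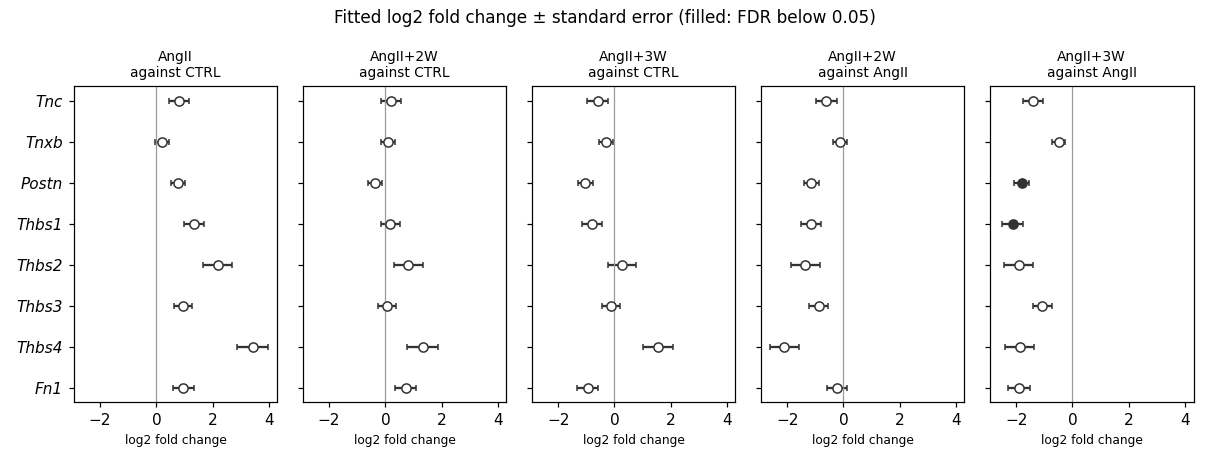
Fitted log2 fold change of the 8 members other than Tnn in 5 comparisons, with bars for the standard error. Filled points passed an FDR of 0.05, which were Postn and Thbs1 in AngII+3W against AngII, and points of AngII against CTRL, the comparison behind the choice of members, are open throughout. All 8 estimates are below 0 in both comparisons with AngII, which use the same AngII libraries in which the members were high.

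Compared directly with AngII, 2 of the 8 members tested were lower 3 weeks after the infusion. Postn fell by 1.81 on the log2 scale (SE 0.265, FDR = 0.0280), from 1079 ± 18.4 to 308 ± 91.9 CPM (SD, n = 2), and Thbs1 fell by 2.13 (SE 0.361, FDR = 0.0417), from 265 ± 91.0 to 60.6 ± 29.3 CPM. Both are edgeR quasi-likelihood tests adjusted over all genes. This count stands beside 1.61% of all genes called and 1.32% called lower. Fn1 had a log2 fold change of -1.90 (SE 0.381, FDR = 0.0579), Tnc of -1.40 (SE 0.363, FDR = 0.107), Thbs2 of -1.90 (SE 0.519, FDR = 0.122), Thbs4 of -1.87 (SE 0.508, FDR = 0.121), Thbs3 of -1.07 (SE 0.330, FDR = 0.155) and Tnxb of -0.50 (SE 0.246, FDR = 0.340). The median of the 8 was -1.84, against 0.04 over all genes tested, and it was -1.40 without AngII+3W replicate 1. Both AngII+3W libraries were below both AngII libraries for 7 of the 8 members, all except Tnxb, and for 24.3% of all genes.

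The number of members called in AngII+3W against AngII turned on single libraries. It was 6 without AngII+3W replicate 2 (Fn1, Postn, Thbs1, Thbs2, Thbs3 and Tnc), 1 without CTRL replicate 1 (Postn), and 0 without AngII+3W replicate 1, CTRL replicate 2 or any 1 of the AngII and AngII+2W libraries. Without AngII+3W replicate 1, the log2 fold change was -1.52 for Postn (FDR = 0.0772), -1.70 for Thbs1 (FDR = 0.0873), -1.43 for Fn1, -0.88 for Tnc, -1.36 for Thbs2 and -1.82 for Thbs4. The FDR of Postn reached 0.208 and that of Thbs1 0.256 without AngII replicate 2, and both directions were the same in all 8 such fits. A fit of the 2 groups alone called 0 members.

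After 2 weeks without infusion, 0 of 8 members differed from AngII at an FDR below 0.05 by edgeR, where 0.163% of all genes did, while 5 members and 15.0% of all genes had an unadjusted p below 0.05, and DESeq2 called 3 members and 3.99% of all genes. Postn had a log2 fold change of -1.14 (SE 0.260, FDR = 0.105), Thbs4 of -2.10 (SE 0.512, FDR = 0.120), Thbs1 of -1.16 (SE 0.350, FDR = 0.181), Thbs2 of -1.36 (SE 0.509, FDR = 0.259) and Thbs3 of -0.88 (SE 0.328, FDR = 0.257). Fn1 was the member whose estimate was near 0 here, at -0.23 (SE 0.369), next to Tnxb at -0.12 (SE 0.245). Between AngII+3W and AngII+2W, 0 of 8 members and 0% of all genes passed, DESeq2 called 1 member and 1.26% of all genes, and 3 members and 8.83% of all genes had an unadjusted p below 0.05. Among them Fn1 had the lowest estimate, -1.67 (SE 0.378, FDR = 0.373), and -1.21 without AngII+3W replicate 1. Comparisons with AngII use the same AngII libraries in which the members were high, and they are not independent of one another.

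Other secreted matricellular proteins were followed in a list of 30 genes, of which 29 could be tested. The list was chosen with earlier results of these data known, so its counts are a description beside the shares over all genes. In AngII, 6 were higher than CTRL and 0 were lower at an FDR below 0.05, against 2.90% higher and 2.20% lower over all genes tested, and the list median was a log2 fold change of 0.38. Sned1, a fibronectin-repeat matrix protein, was higher by 1.74 (SE 0.166, FDR = 0.00530), Ccn4, a CCN family protein induced by WNT signaling, by 2.98 (SE 0.474, FDR = 0.0183) and Spon2, a ligand of integrins on inflammatory cells, by 1.97 (SE 0.335, FDR = 0.0220), all on the log2 scale. Sparc, Spp1 and Matn2 also passed. Spp1 had 74 and 2313 counts in the 2 AngII libraries, so that its mean rests on replicate 2. Comp, the pentamer closest to Thbs3 and Thbs4, averaged 16.2 ± 5.85 CPM for CTRL and 116 ± 21.6 CPM for AngII (SD, n = 2) and did not pass. It was chosen after its values were seen. Leaving out 1 library gave 0 calls without CTRL replicate 1 or AngII replicate 2, 8 without either AngII+3W library and 2 otherwise.

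Between AngII+3W and AngII, 3 genes of this list fell and 1 rose, against 1.32% lower and 0.285% higher over all genes, and the list median was -0.73 (-0.39 without AngII+3W replicate 1). Spon2 fell by 3.87 (SE 0.393, FDR = 0.0146), Sned1 by 1.41 (SE 0.164, FDR = 0.0206) and Sparc, a collagen-binding protein, by 1.80 (SE 0.285, FDR = 0.0329) on the log2 scale. Spon2 had 111 and 158 counts in AngII and only 12 and 5 in AngII+3W, so its value without AngII+3W replicate 1 rests on 5 counts. Tnr, the tenascin of the nervous system, rose by 1.33 (SE 0.244, FDR = 0.0460), with 41 and 37 counts in AngII and 101 and 85 in AngII+3W. Beside this, 3 of 6 Schwann cell markers tested were higher in AngII+3W than in AngII, and their summed level was 57.9 to 69.3 CPM in AngII and 141 to 145 CPM in AngII+3W. The part of these cells in the Tnr value was not tested. Without AngII+3W replicate 1, the log2 fold change was -4.61 for Spon2 (FDR = 0.0255), -1.30 for Sned1 (FDR = 0.0552), -1.50 for Sparc (FDR = 0.0897) and 1.21 for Tnr (FDR = 0.148). The number of calls in this list was 12 without AngII+3W replicate 2, 0 without AngII replicate 2, 1 without AngII+3W replicate 1 or either AngII+2W library, 2 without either CTRL library and 3 without AngII replicate 1. In AngII+2W against AngII, Sned1 alone was called, lower by 1.30 (SE 0.164, FDR = 0.0461), where 0.140% of all genes were lower. That call was lost without either CTRL, AngII or AngII+2W library (FDR = 0.0778 to 0.503). By edgeR's quasi-likelihood test 0 of the 29 differed in AngII+2W against CTRL (9 at an unadjusted p below 0.05, 1 called by DESeq2), 0 in AngII+3W against CTRL (11 and 5) and 0 between AngII+3W and AngII+2W (10 and 2). Over all genes the shares at an unadjusted p below 0.05 were 10.7%, 12.5% and 8.83% in these comparisons, and DESeq2 called 2.17%, 3.42% and 1.26%.

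**Figure D3:**
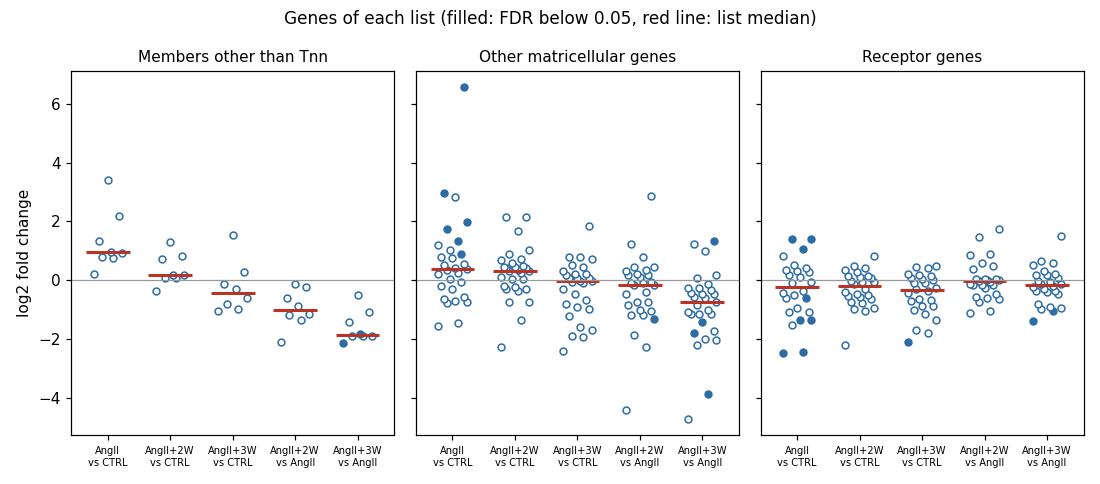
Fitted log2 fold change of each gene in 5 comparisons for the 8 members other than Tnn, 29 other matricellular genes and 26 receptor genes. Filled points passed an FDR of 0.05, except that the members are open in AngII against CTRL, and red lines are list medians. The median of the members lies at 0.95 in AngII against CTRL and at -1.84 in AngII+3W against AngII, while that of the receptor genes stays between -0.33 and -0.04.

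The receptors and binding partners of these proteins were followed in a list of 26 genes, all tested. This list too was chosen with earlier results of these data known, and its counts are likewise a description. In AngII, 3 were higher and 5 lower than CTRL, against 2.90% higher and 2.20% lower over all genes, and the list median was -0.24. The higher genes were Sdc1 (log2 fold change 1.40, SE 0.219, FDR = 0.0175) and Sdc3 (1.06, SE 0.233, FDR = 0.0446), which encode syndecans, and Itga2 (1.39, SE 0.248, FDR = 0.0252), the α2 chain of a collagen-binding integrin. The lower genes were Ptprz1 (-2.47, SE 0.292, FDR = 0.00869), a receptor phosphatase that binds tenascins, Itga8 (-2.42, SE 0.289, FDR = 0.00897), the α8 chain of smooth muscle cells that pairs with β1 and binds fibronectin and tenascins, and Itgb3 (-1.34, SE 0.256, FDR = 0.0312), the β3 chain of the αvβ3 receptor, together with Itga3 and Itga7. The counts of Itga8 were 32567 and 23105 under CTRL, against 4388 and 5523 under AngII. The number of calls was 0 without CTRL replicate 1 or AngII replicate 2, 10 without either AngII+3W library, and 1 to 3 in the other 4 fits.

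Itga8 was also the receptor gene that differed from CTRL in AngII+3W, where it was lower by a log2 fold change of -2.09 (SE 0.285, FDR = 0.0455), and 0.268% of all genes were lower. Without AngII+3W replicate 1 its value was -1.78 (FDR = 0.100), and of the 8 fits without 1 library it passed in those without CTRL replicate 2 and without AngII+3W replicate 2. Between AngII+3W and AngII, Calr, which encodes calreticulin and serves as a cell surface partner of thrombospondins, fell by 1.06 (SE 0.146, FDR = 0.0252) and Sdc1 by 1.37 (SE 0.219, FDR = 0.0354), where 1.32% of all genes were lower. These values were -0.97 (FDR = 0.0884) and -1.21 (FDR = 0.116) without AngII+3W replicate 1. Without AngII+3W replicate 1 the count in this comparison was 0, as it was without any 1 of the AngII and AngII+2W libraries, and it was 5 without replicate 2 and 1 without either CTRL library. In edgeR's test 0 receptor genes passed in AngII+2W against CTRL (8 at an unadjusted p below 0.05, 2 called by DESeq2), AngII+2W against AngII (9 and 5) and AngII+3W against AngII+2W (6 and 4), where 10.7%, 15.0% and 8.83% of all genes had an unadjusted p below 0.05 and DESeq2 called 2.17%, 3.99% and 1.26%.

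Markers of several cell types also differed between the groups, in either direction. The 8 fibroblast markers summed to 654 to 1061 CPM for CTRL, 1709 to 2168 CPM for AngII, 1073 to 1841 CPM for AngII+2W and 694 to 1343 CPM for AngII+3W, and 1 of the 8 passed as higher in AngII than in CTRL. The 8 macrophage markers summed to 249 to 336 CPM for CTRL, 649 to 1082 CPM for AngII, 439 to 447 CPM for AngII+2W and 217 to 367 CPM for AngII+3W, with 4 of 8 higher in AngII. The 8 smooth muscle markers summed to 7404 to 9519 CPM for CTRL, 1759 to 2186 CPM for AngII, 3561 to 3934 CPM for AngII+2W and 1916 to 3386 CPM for AngII+3W, with 6 lower in AngII and 3 lower in AngII+3W. None of these markers was at 0 in a library. In AngII against CTRL, 2.90% of all genes passed as higher and 2.20% as lower, and 0.268% as lower in AngII+3W against CTRL. Between AngII+3W and AngII, 1 fibroblast and 1 macrophage marker passed as lower in AngII+3W, where 1.32% of all genes did. The 8 cardiac muscle markers summed to 2154 to 4785 CPM for CTRL, 837 to 1276 CPM for AngII, 82.5 to 235 CPM for AngII+2W, and 443 and 5583 CPM for AngII+3W, the latter in replicate 1, and 0 of 8 passed in any comparison. Endothelial markers summed to 977 to 1327 CPM over all libraries, and 0 of 8 passed in any comparison. The part of these cells in the member values was not tested. In tissue libraries, fewer cells of a type and less RNA per cell cannot be told apart.

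Tenascin-W, Thbs4 and Comp are also made in cartilage, bone and tendon, so markers of these tissues were read too. Beside them, 2.90% of all genes passed as higher in AngII against CTRL. Of the 4 cartilage markers tested, out of a list of 8, 1 (Col11a1) was higher in AngII, with 25 and 15 counts in CTRL and 699 and 1443 in AngII, while Matn3 had 0 and 0 counts in CTRL and 7 and 43 in AngII, Col2a1 had at most 19 counts and Matn1 at most 1 count in any library. The whole cartilage list summed to 15.8 to 22.4 CPM for CTRL and 71.7 to 107 CPM for AngII. The tendon marker Tnmd held 8 and 2 counts under CTRL and 107 and 49 under AngII, and 0 of 4 tendon markers tested passed. Fmod had 1035 and 471 counts against 1913 and 2081, Scx 64 and 61 against 46 and 74, and Mkx 35 and 28 against 42 and 43. The tendon list summed to 26.4 to 55.6 CPM for CTRL and 107 to 114 CPM for AngII. Among bone markers, of which 0 of 3 tested passed, Ibsp had 4 and 4 counts in CTRL and 13 and 23 in AngII, Bglap at most 2 counts, and Bglap2 was at 0 in all libraries. The part of such cells in the Tnn, Thbs4 and Comp values was not tested. AngII+3W replicate 1, which carried the skeletal muscle RNA, was the lowest of the 8 libraries for 7 of the 8 members other than Tnn. The share of all genes that were lowest in this library was not taken, so nothing is read from this count.

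**Figure D4:**
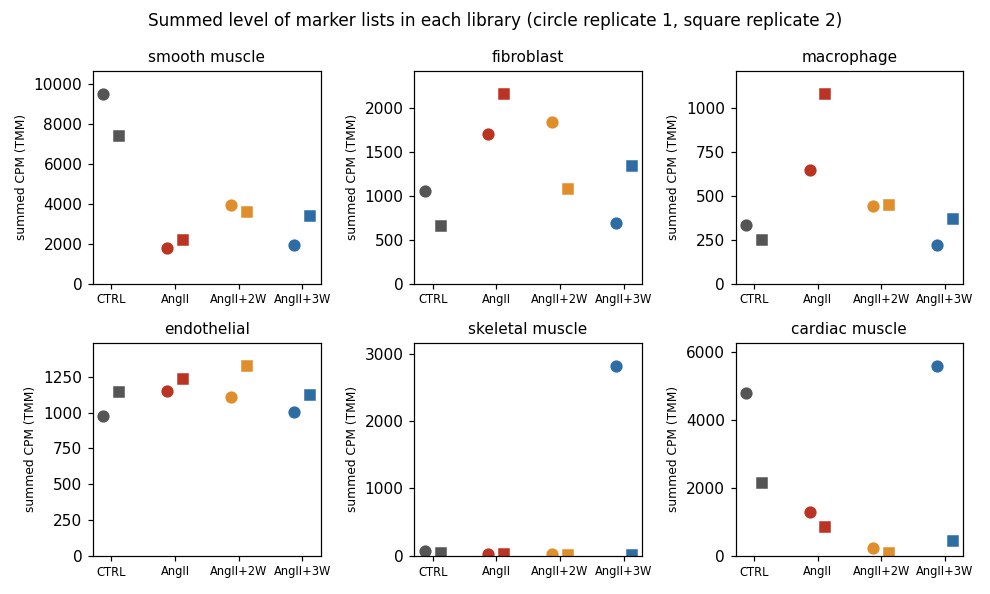
Summed CPM of 6 lists of cell type markers in each library, on linear axes that start at 0, with circles for replicate 1 and squares for replicate 2. Macrophage markers are highest in both AngII libraries and smooth muscle markers in both CTRL libraries. Fibroblast markers are highest in AngII replicate 2 (2168 CPM), but AngII+2W replicate 1 (1841 CPM) is above AngII replicate 1 (1709 CPM). Skeletal muscle markers reach 2822 CPM in AngII+3W replicate 1 and at most 74.9 CPM elsewhere.

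Genes with a pattern most like each member over the 8 libraries were taken by the smallest root mean square difference of log2 CPM (prior count 2) after centring, as a description without a test, since all points share the same libraries. For Tnn, whose log2 level ranged over 7.41, the nearest were Wfdc21 (0.75), Col11a1 (1.27), Saa2 (1.31), Fbn2 (1.33) and Cthrc1 (1.33). Wfdc21 had 1 to 9 counts in the 6 libraries without ongoing infusion and 392 and 294 in AngII. Cthrc1, a secreted protein of activated fibroblasts and injured arteries, reached 12 and 15 counts under CTRL, 515 and 646 under AngII, 61 and 31 at AngII+2W, and 11 and 48 at AngII+3W. Cthrc1 and Col11a1, unlike Tnn, were above the floor in every library. With a prior count of 0.5 in place of 2, 2 of the 5 genes (Wfdc21 and Saa2) stayed among the 5 nearest, and Col11a1, Fbn2 and Cthrc1 did not.

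The nearest genes of the other members were Col6a2, P2ry6 and Col6a1 for Tnc (differences of 0.20 to 0.21), Fkbp9, Smo and Abhd2 for Tnxb (0.08 to 0.09), Fstl1, Olfml2b and Folr2 for Postn (0.15 to 0.20), and H2bc3, Loxl2 and Spi1 for Thbs1 (0.19 to 0.26). Thbs2 was nearest to Col14a1, Mmp2 and Fcgr3 (0.18 to 0.19), Thbs3 to Stab1, Bmp1 and Adgra2 (0.10 to 0.12), Thbs4 to Fgf18, Lgr5 and Gpr34 (0.48 to 0.53), and Fn1 to Gm18827 and Bgn (0.28 and 0.31). Gm18827 had only 1 to 21 counts per library. With a prior count of 0.5 it was no longer among the 3 nearest to Fn1, nor was Loxl2 among those of Thbs1. Among these nearest genes, Spi1, Fcgr3, Folr2 and Stab1 are known from macrophages, and Col14a1, Mmp2 and Col6a1 are matrix genes of fibroblasts. The others were not assigned to a cell type, and the part of such cells in the member values was not tested. Mmp2, the gelatinase that cleaves matrix proteins, averaged 66.0 CPM for CTRL, 393 for AngII, 143 for AngII+2W and 84.2 for AngII+3W, beside 42.5, 192, 74.8 and 51.2 CPM for Thbs2.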

How the data were processed

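RNA from a part of each aorta (tissue of 2 mice pooled per library) was depleted of ribosomal RNA and sequenced in a single lane. The deposited values are expected counts per gene, which the authors estimated with Salmon on GRCm38 transcripts and summed to genes, and they were tested as the whole numbers the table holds. The submitters' processing notes name build GRCm38.p6. Libraries were grouped by their titles. Of 35896 genes, 17182 passed edgeR's filterByExpr. All 8 libraries (18130441 to 21498200 counts) were fitted together in edgeR 4.0.16 (R 4.3.3) with TMM and the older quasi-likelihood F test, which left 4 residual degrees of freedom. Two-sided p-values were adjusted by Benjamini-Hochberg over all genes tested (FDR, threshold 0.05) in each of 6 comparisons. SE is the absolute log2 fold change divided by the square root of F. With 2 libraries a group, the smallest two-sided p of an exact permutation test is 0.33, so none was run. Since pools of mice are the replicates, p-values measure the spread between pools. Counts of 0 and folds against the floor of 3 counts cover counting error only.

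The members, gene lists and marker lists were chosen with earlier results of these data known. Named are all members, from each list and comparison among genes past the threshold, the up to 3 higher and 3 lower ones of smallest p, and for each member the 3 genes (5 for Tnn) most like it, of which 1 is not reported here. Exon lengths, overlaps and positions come from GENCODE M21 on GRCm38, which holds 98.9% of the identifiers, near copies from BLAST 2.17.0, and upstream sequences from RefSeq on GRCm38.p6. Alternatives were DESeq2 size factors, library totals alone, a filter of at least 1 count in all or at least 10 counts per library, limma-voom (limma 3.58.1), DESeq2 1.42.0, the likelihood ratio test of edgeR, the newer and robust quasi-likelihood fits, only the 2 groups compared, the replicate number as a block, a prior count of 0.5, and leaving out each library.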

Additional observations from a re-analysis of the deposited data

Results flagged for a closer look

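Effects at 2 time points were compared by testing them directly against each other. Where such a test passed an FDR of 0.05 by edgeR's quasi-likelihood test, the gene is listed as differing between the end of the infusion and the later time. Between AngII and AngII+3W this held for the members Postn (log2 fold change -1.81) and Thbs1 (-2.13), for the other matricellular genes Tnr (1.33), Spon2 (-3.87), Sned1 (-1.41) and Sparc (-1.80), and for the receptor genes Calr (-1.06) and Sdc1 (-1.37). Between AngII and AngII+2W it held for Sned1 (-1.30). The tests of members use the same AngII libraries in which the members were high. As given above, the calls turned on single libraries. Without AngII+3W replicate 1 the log2 fold change was -1.52 for Postn and -1.70 for Thbs1. A fit of the 2 groups alone called 0 genes between AngII+3W and AngII. Both libraries of one group were on the same side of both libraries of the other for each gene listed. For genes that passed the test this is no separate support. Both AngII+3W libraries were below both AngII libraries for 24.3% of all genes, and the share was not taken for the opposite direction or for AngII+2W. Groups of 2 libraries are too small to flag a single library as an outlier by the values of one gene. AngII+3W replicate 1 was set apart by its skeletal muscle genes instead.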

How the results depend on the processing

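The limits of these data are 2 pooled libraries per group, of which AngII+3W replicate 1 stands apart, and counts near 0 for Tnn outside AngII. Tnn was at least 83.9 to 119 times the CTRL floor over 6 alternatives (2 scalings and leaving out each CTRL or AngII library). Of the member estimates in all 8 libraries, 485 kept their direction and side of the threshold, 40 gained and 3 lost a call, and 0 changed sign, and for the genes named from the lists 168 kept both and 17 lost a call. Of the genes named as most like a member, 24 of 29 were shared with a prior count of 0.5, and 2 of 5 for Tnn.

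Counts of genes past the threshold moved between settings, and the cause was not tested. In AngII against CTRL, where nothing is read from the member counts, 1 member passed as reported, 3 when genes with at least 1 count were kept, 2 with at least 10 counts in every library, 6 with DESeq2, 3 with the likelihood ratio test and 4 in the fit of only the 2 groups. Other matricellular genes went from 6 to 10 with DESeq2, and receptor genes from 8 to 4 with library totals alone. In AngII+2W against CTRL, 0 members passed in each alternative, while DESeq2 and the likelihood ratio test called 1 and 1 other matricellular genes and 2 and 1 receptor genes. Against CTRL in AngII+3W they called 2 and 1 members, 5 and 5 other matricellular genes and 9 and 9 receptor genes. There, the filter of at least 1 count gave 2 other matricellular genes and 3 receptor genes, at least 10 counts 3 receptor genes, the robust fit 2, and library totals alone and the fit of only the 2 groups 0. In AngII+2W against AngII, members went from 0 to 3 with DESeq2, the likelihood ratio test and only the 2 groups. Other matricellular genes went from 1 to 8 with both tests, 6 with only the 2 groups, 3 with the filter of at least 1 count, and 0 with library totals alone and limma-voom, and receptor genes from 0 to 5 with both tests, 7 with only the 2 groups and 2 with the filter of at least 1 count. In AngII+3W against AngII, members went from 2 to 1 with library totals alone, 6 with DESeq2, 7 with the likelihood ratio test and 0 with only the 2 groups. The filters of at least 1 count and of at least 10 counts in every library, and the robust fit, each gave 3 members. Other matricellular genes went from 4 to 11 with both tests and 0 with only the 2 groups, and receptor genes from 2 to 5 and 0. Between AngII+3W and AngII+2W, DESeq2 and the likelihood ratio test called 1 and 1 members, 2 and 2 other matricellular genes, and 4 and 3 receptor genes.

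Same-numbered libraries come from different mice, so the reported fit holds no replicate block. The differences between replicates 1 and 2 correlated between groups by -0.0445 to 0.248 across 17182 genes. With a single difference per group, these values cannot decide whether same-numbered libraries share a processing batch. With a replicate block, 2 members (Thbs1 and Thbs4) passed in AngII against CTRL, 0 receptor genes in AngII+3W against CTRL and 0 other matricellular genes in AngII+2W against AngII, and 2 members (Postn and Thbs1) in AngII+3W against AngII.

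Leaving out 1 library at a time gave 0 to 6 members, 0 to 8 other matricellular genes and 0 to 10 receptor genes in AngII against CTRL. The counts were 0, 0 to 1 and 0 to 3 in AngII+2W against CTRL, 0 to 3, 0 to 8 and 0 to 8 in AngII+3W against CTRL, 0 to 1, 0 to 3 and 0 to 2 in AngII+2W against AngII, 0 to 6, 0 to 12 and 0 to 5 in AngII+3W against AngII, and 0 to 3, 0 to 4 and 0 to 7 in AngII+3W against AngII+2W. Some uncalled log2 fold changes changed sign in these fits. Tnxb ranged from -0.066 (without AngII replicate 2) to 0.44 in AngII against CTRL and from -0.36 to 0.16 in AngII+2W against AngII, and Fn1 from -0.49 to 0.079 in the latter. In AngII+2W against CTRL, Thbs1 ranged from -0.021 to 0.34 and Thbs3 from -0.17 to 0.36 (-0.09 without AngII+2W replicate 1). In AngII+3W against CTRL, Thbs2 ranged from -0.66 to 0.81 and Thbs3 from -0.73 to 0.27 (0.16 without CTRL replicate 1). In AngII+3W against AngII+2W, Thbs3 ranged from -0.78 to 0.21 and Thbs4 from -0.33 to 1.07.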
